A study of Mus musculus with 12 samples.

Results

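De novo lipogenesis is the pathway by which the liver turns excess carbohydrate into fatty acids, and 10 of its genes were followed across mouse livers: the enzymes Acly, Me1, Acaca, Acacb, Fasn, Elovl6 and Scd1, and the regulators Srebf1, Mlxipl and Thrsp. They were taken by gene symbol from a table of 19252 genes, and each symbol matched exactly 1 row. All 10 passed the floor for testing, a level of at least 1 TPM in at least 4 of the 12 libraries, as did 11376 genes in all. TPM (transcript abundance scaled to a fixed total) is a share of a library's transcripts corrected for transcript length, so that levels can be compared between genes.

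The livers came from C57BL/6 mice in 3 groups of 4. The NAC_HFD group received a high fat diet together with N-acetylcysteine (NAC), a cysteine precursor that supports glutathione synthesis, at 2 g per litre of drinking water. The HFD group received the high fat diet without NAC, and the NFD group a normal fat diet. The mice were fed for 14 weeks. The age label reads 8 weeks in every group, and whether that is the age at the start or at sampling is not stated. The labels do not say whether each library came from its own animal or when in the day livers were taken, so p-values measure only the spread between these samples, which may be technical.

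In the pathway, citrate exported from mitochondria is cleaved to acetyl-CoA, acetyl-CoA is carboxylated to malonyl-CoA, and fatty acid synthase joins these units into palmitate with NADPH as the reductant; palmitate is then elongated and desaturated. Insulin acts on these genes through SREBP-1c, an Srebf1 product, and sugars act through ChREBP, the Mlxipl product. In liver the genes are known to rise together on refeeding with carbohydrate and to be low in fasting.

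Read depth cannot be had from TPM and is not known here. Each library listed 10864 to 11316 genes at 1 TPM or more, and none of the 66 pairs of libraries held identical values. The summed level of 6 hepatocyte markers was 34356 to 50929 TPM in NAC_HFD, 31694 to 48820 TPM in HFD and 39587 to 43711 TPM in NFD livers, as fits the tissue label. In bulk liver, fewer cells of a type and less RNA per cell cannot be told apart.

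None of the 10 genes passed the test in any comparison. Over all genes, 2.78% passed for HFD against NFD, 0% for NAC_HFD against HFD and 5.28% for NAC_HFD against NFD, at an adjusted p under 0.05 (limma on log2(TPM + 1), adjusted by Benjamini and Hochberg over all tested genes). At an unadjusted p under 0.05, 1 member was found for HFD against NFD, 0 for NAC_HFD against HFD and 2 for NAC_HFD against NFD, beside 2172, 1870 and 2574 of all genes in the same order. The median log2 fold change of the 10 was -0.13 for HFD against NFD, 0.12 for NAC_HFD against HFD and -0.32 for NAC_HFD against NFD, where the medians of all genes were 0.01, -0.08 and -0.07. No member had groups that did not overlap. Over all genes, all 4 libraries lay above the other 4 in 7.78% (HFD above NFD), 1.56% (NAC_HFD above HFD) and 3.52% (NAC_HFD above NFD), and below them in 4.57%, 8.66% and 8.52%.

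**Figure D1:**
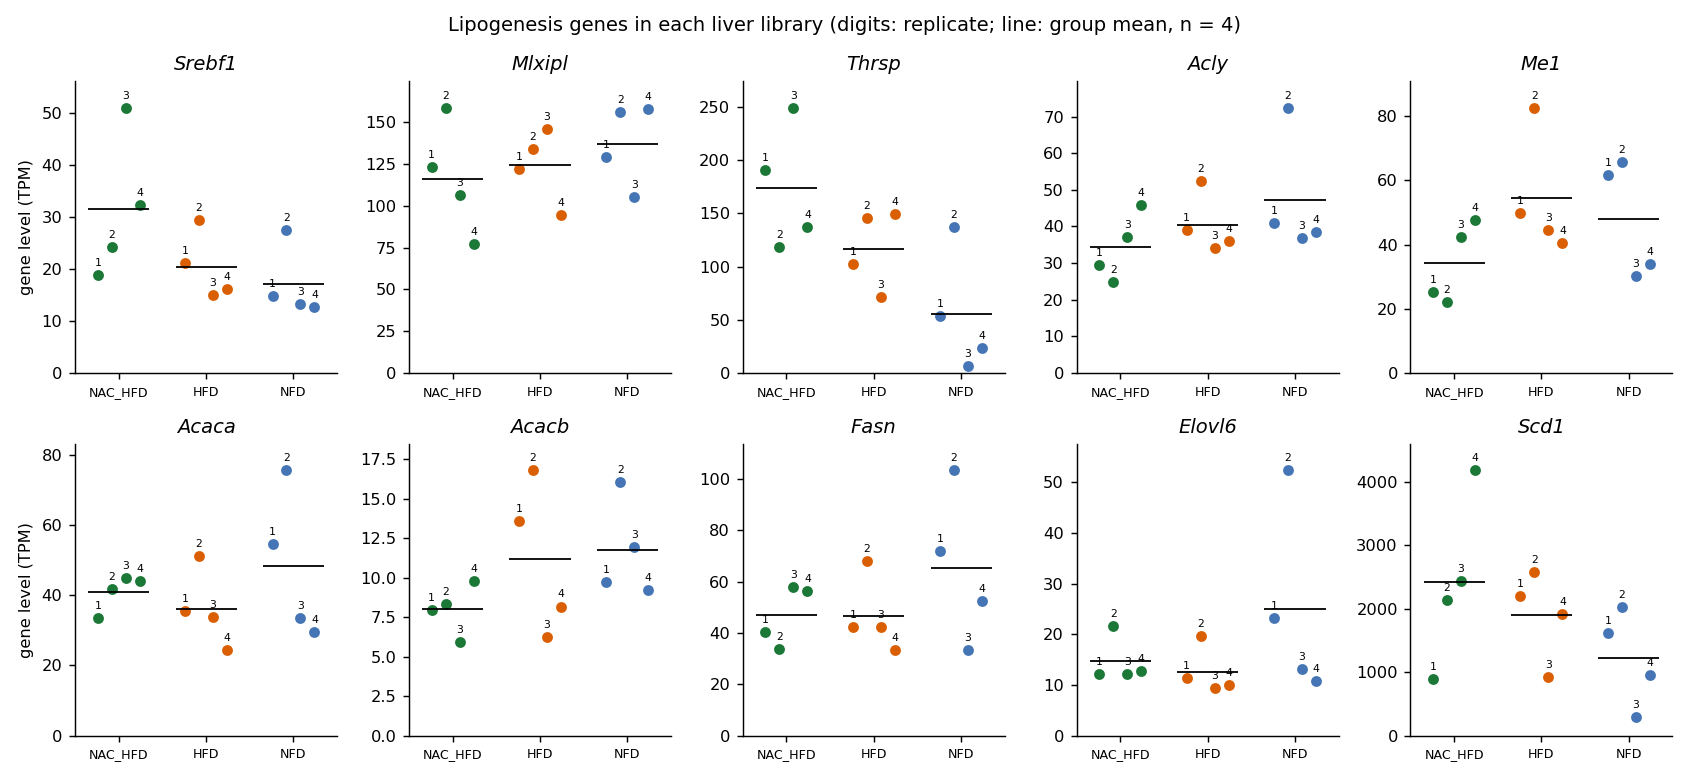
Gene level in TPM (vertical axis, from 0) of the 10 lipogenesis genes in each library of the NAC_HFD, HFD and NFD groups; each point is a library, the digit its replicate number and the line the mean of 4. Every gene's groups overlap, and NFD replicate 2 is the highest NFD library for 9 of the 10 genes.

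Of the regulators, Srebf1 (ENSMUSG00000020538) encodes the precursors of the transcription factors SREBP-1a and SREBP-1c. Srebf1 stood at 18.8, 24.2, 51.0 and 32.3 TPM in NAC_HFD livers, at 21.1, 29.4, 15.0 and 16.2 TPM in HFD livers and at 14.7, 27.4, 13.2 and 12.7 TPM in NFD livers. NAC_HFD replicate 3 was above every other library, and all 4 NAC_HFD libraries were above 3 of the 4 NFD libraries. The log2 fold change of Srebf1 was 0.83 (95% interval 0.12 to 1.54) for NAC_HFD against NFD (limma, adjusted p = 0.156), 0.56 (-0.15 to 1.26) for NAC_HFD against HFD (adjusted p = 0.412) and 0.27 (-0.44 to 0.98) for HFD against NFD (adjusted p = 0.697).

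Mlxipl (ENSMUSG00000005373), which encodes the sugar-responsive factor ChREBP, varied least of the 10 in the HFD and NFD groups. It stood at 123, 159, 106 and 77.4 TPM in NAC_HFD, at 122, 134, 146 and 94.3 TPM in HFD and at 129, 156, 106 and 158 TPM in NFD livers. Its coefficient of variation was 29.2%, 17.9% and 18.0% in these groups in that order. The log2 fold changes were -0.12 (NAC_HFD against HFD), -0.14 (HFD against NFD) and -0.26 (NAC_HFD against NFD), with adjusted p from 0.468 to 0.808 by limma, and the interval for NAC_HFD against NFD reached from -0.71 to 0.18.

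Thrsp (ENSMUSG00000035686; chr7:97412933-97417550, build GRCm38) encodes Spot 14, a small nuclear protein induced by thyroid hormone and carbohydrate and tied to fatty acid synthesis. Thrsp stood at 191, 118, 250 and 137 TPM in NAC_HFD livers, at 102, 145, 71.0 and 149 TPM in HFD livers and at 53.9, 138, 6.41 and 23.3 TPM in NFD livers. NFD replicate 2 was as high as the HFD livers, while the other 3 NFD libraries lay below all 8 livers on the high fat diet. Its spread in NFD was the widest of any member, the highest library being 21.5 times the lowest. The log2 fold change was 2.29 (0.62 to 3.97) for NAC_HFD against NFD (limma, adjusted p = 0.109), 1.72 (0.05 to 3.40) for HFD against NFD (adjusted p = 0.248) and 0.57 (-1.11 to 2.24) for NAC_HFD against HFD (adjusted p = 0.750). Without NFD replicate 2, Thrsp passed the test for NAC_HFD against NFD, with a log2 fold change of 2.97 and an adjusted p of 0.0331 by limma. Thrsp was then the only member to pass in any of the fits that left out 1 library. Over those fits its log2 fold change ran from 1.56 (without NFD replicate 3) to 2.97 for NAC_HFD against NFD, with adjusted p up to 0.218 by limma, and from 0.99 (without NFD replicate 3) to 2.40 (without NFD replicate 2) for HFD against NFD.

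The enzymes that supply the pathway showed no such shape. Acly (ENSMUSG00000020917), ATP citrate lyase, which cleaves citrate in the cytosol, stood at 29.4, 24.9, 37.1 and 45.9 TPM in NAC_HFD, 38.9, 52.5, 34.2 and 35.9 TPM in HFD and 41.0, 72.5, 36.9 and 38.6 TPM in NFD livers. All but NFD replicate 2 and HFD replicate 2 lay between 24.9 and 45.9 TPM. Its log2 fold changes ran from -0.43 (NAC_HFD against NFD; adjusted p = 0.290, limma) to -0.19 (HFD against NFD; adjusted p = 0.711).

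Me1 (ENSMUSG00000032418), the cytosolic malic enzyme that yields NADPH, stood at 25.2, 22.1, 42.4 and 47.7 TPM in NAC_HFD, 49.9, 82.7, 44.5 and 40.4 TPM in HFD and 61.7, 65.8, 30.2 and 33.9 TPM in NFD livers. Of the 10 genes, Me1 had the smallest p for NAC_HFD against HFD. Its log2 fold change there was -0.66 (-1.39 to 0.06; adjusted p = 0.341, limma), with 2 NAC_HFD libraries below all HFD libraries and 2 among them. For HFD against NFD the value was 0.20 (adjusted p = 0.780, limma).

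Acaca and Acacb encode the acetyl-CoA carboxylases. The cytosolic enzyme made from Acaca (ENSMUSG00000020532) provides the malonyl-CoA for synthesis, and the enzyme made from Acacb (ENSMUSG00000042010) sits at the mitochondrial outer membrane, where malonyl-CoA holds back fatty acid oxidation. Acaca stood at 33.5, 41.6, 44.9 and 44.0 TPM in NAC_HFD, 35.4, 51.1, 33.7 and 24.5 TPM in HFD and 54.7, 75.6, 33.4 and 29.4 TPM in NFD livers. Acacb was the lowest of the 10 genes in mean level, at 7.95, 8.33, 5.93 and 9.79 TPM in NAC_HFD, 13.6, 16.8, 6.21 and 8.17 TPM in HFD and 9.75, 16.1, 11.96 and 9.23 TPM in NFD livers. The 3 log2 fold changes of Acaca lay between -0.35 and 0.21, and those of Acacb between -0.49 and -0.13. The smallest adjusted p of this pair was 0.297 by limma, for Acacb in NAC_HFD against NFD.

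Fasn (ENSMUSG00000025153; chr11:120805958-120825166, build GRCm38), fatty acid synthase, stood at 40.2, 33.6, 57.8 and 56.4 TPM in NAC_HFD, 42.5, 67.9, 42.3 and 33.5 TPM in HFD and 71.9, 103, 33.5 and 52.3 TPM in NFD livers. The means were 47.0 ± 11.99 TPM in NAC_HFD, 46.5 ± 14.8 TPM in HFD and 65.3 ± 29.8 TPM in NFD livers (SD, n = 4 each). For NAC_HFD against HFD the log2 fold change was 0.03 (-0.68 to 0.73; adjusted p = 0.979, limma). For HFD against NFD the log2 fold change was -0.41 (-1.12 to 0.30; adjusted p = 0.522, limma), and it lay between -0.69 (without NFD replicate 3) and -0.15 (without NFD replicate 2) when 1 library was left out.

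Elovl6 (ENSMUSG00000041220), the elongase that extends palmitate to stearate, stood at 12.2, 21.7, 12.2 and 12.8 TPM in NAC_HFD, 11.5, 19.6, 9.38 and 10 TPM in HFD and 23.2, 52.4, 13.2 and 10.8 TPM in NFD livers. Within each group 1 library, replicate 2 in all 3, stood above the rest. The log2 fold change for HFD against NFD was -0.72 (-1.68 to 0.23; adjusted p = 0.401, limma), the lowest of the 10 in that comparison. With 1 library left out it lay between -1.01 (without NFD replicate 4) and -0.29 (without NFD replicate 2).

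Scd1 (ENSMUSG00000037071; chr19:44394450-44407709, build GRCm38), the desaturase that makes monounsaturated fatty acids and an SREBP-1c target, was by far the most abundant of the 10. It stood at 890, 2138, 2442 and 4180 TPM in NAC_HFD livers, at 2195, 2582, 918 and 1919 TPM in HFD livers and at 1618, 2033, 299 and 951 TPM in NFD livers. NAC_HFD replicate 4 was the highest library and NFD replicate 3 the lowest, and the rest of the 3 groups were intermixed. The log2 fold change was 1.09 (-0.35 to 2.54; adjusted p = 0.348, limma) for NAC_HFD against NFD, 0.24 (-1.21 to 1.69; adjusted p = 0.890) for NAC_HFD against HFD and 0.85 (-0.59 to 2.30; adjusted p = 0.511) for HFD against NFD.

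**Figure D2:**
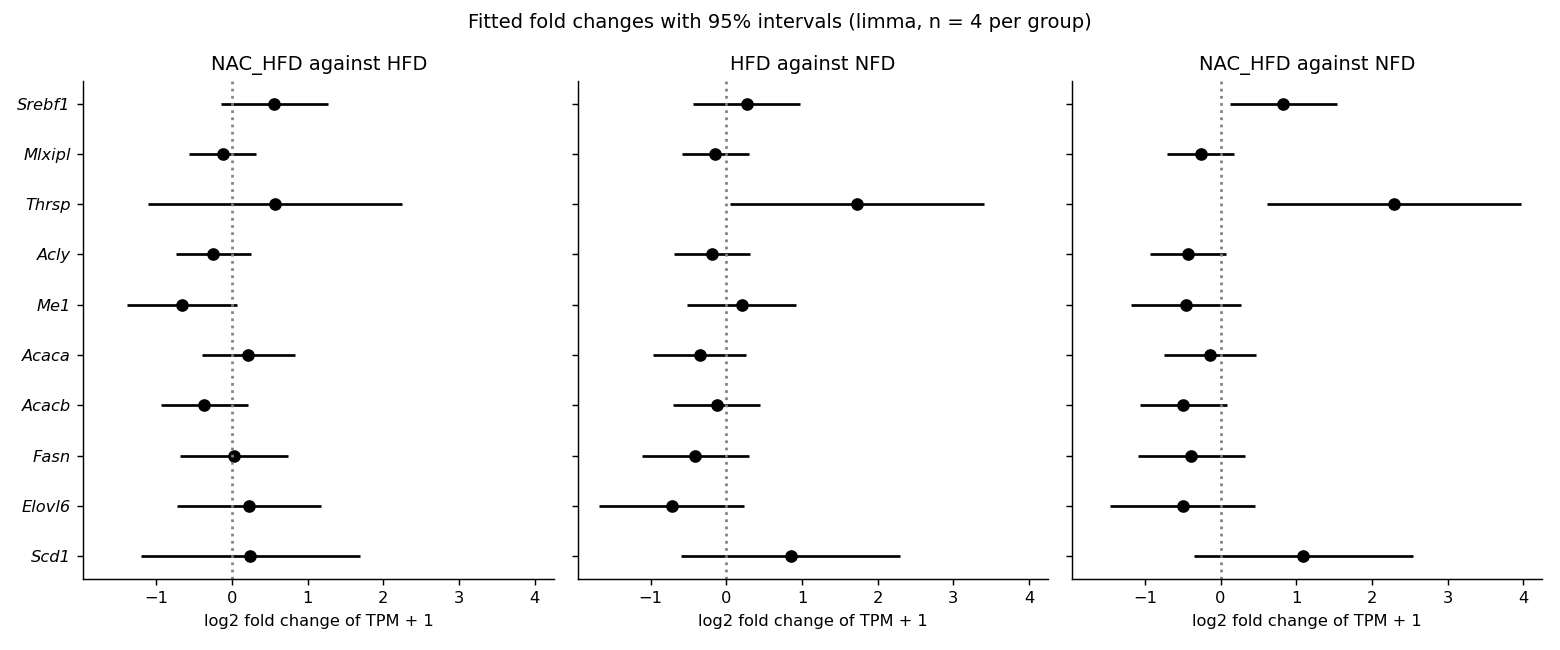
Log2 fold change of TPM + 1 (horizontal axis) of each gene in the 3 comparisons, with the limma estimate as a point and its unadjusted 95% interval as a line. Intervals lie above 0 for Srebf1 (0.83) and Thrsp (2.29) in NAC_HFD against NFD and for Thrsp (1.72) in HFD against NFD, none of which passed after adjustment over all genes.

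Livers of the same group differed from each other too. NFD replicate 2 was the highest NFD library for 9 of the 10 genes, the exception being Mlxipl. NFD replicate 3 was the lowest for 6 genes and NFD replicate 4 for the other 4. In the HFD group replicate 2 was the highest for 8 genes, and the lowest value was in replicate 3 for 6 and in replicate 4 for 4. In the NAC_HFD group the genes divided: replicates 3 and 4 were each the highest for 4 genes, and replicates 1 and 2 each the lowest for 4.

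After each group's mean was subtracted, 40 of the 45 gene pairs had a positive correlation over the 12 libraries, with a median r of 0.64 (-0.20 to 0.93). Over all pairs of the tested genes the median was 0.07, and 56.7% were positive. The points are the same libraries in every pair and share their total, so these values are a description.

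**Figure D3:**
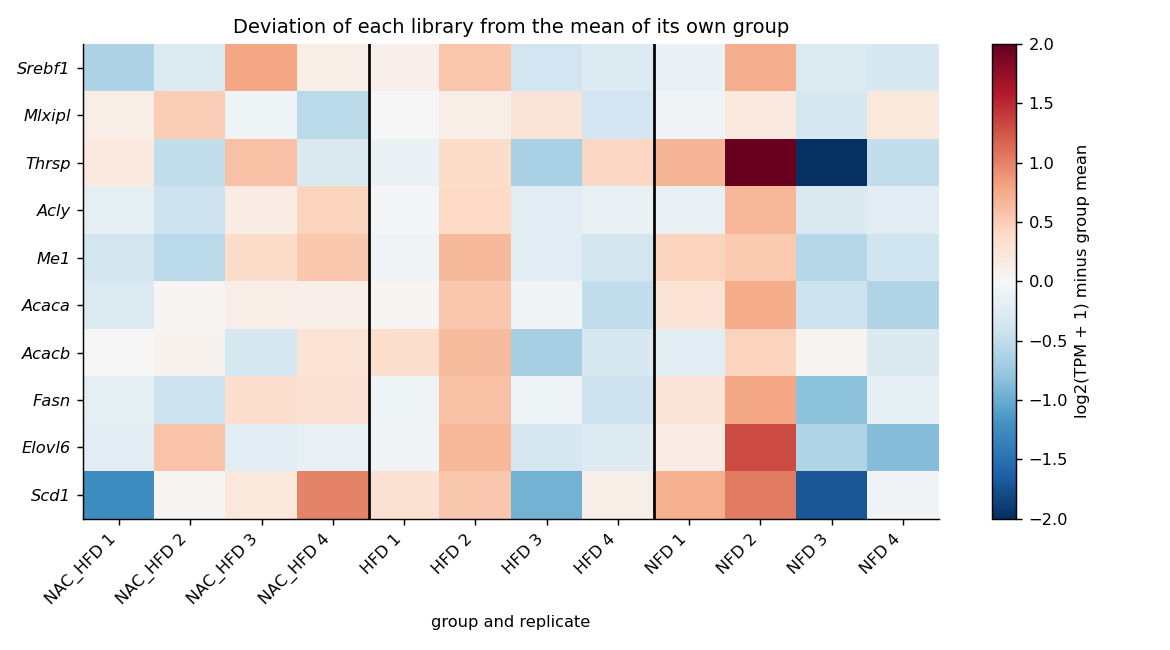
Deviation of each library (columns, by group and replicate) from the mean of its own group on the log2(TPM + 1) scale, for each gene (rows); red is above the group mean and blue below. NFD replicate 2 is red for all 10 genes, while HFD replicate 2 is red and NFD replicate 3 blue for nearly all.

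Ratios within a library remove the part of the variation that the genes share. They were taken to Fasn for the other 9 genes after the values had been seen, and carry no test. Thrsp over Fasn was 2.43 to 4.75 in NAC_HFD, 1.68 to 4.45 in HFD and 0.192 to 1.33 in NFD livers, so that every library on the high fat diet was above every NFD library. Srebf1 over Fasn was 0.468 to 0.882 in NAC_HFD, 0.354 to 0.498 in HFD and 0.205 to 0.393 in NFD livers, without overlap between NAC_HFD and NFD. Me1 over Fasn was 0.626 to 0.846 in NAC_HFD, 1.05 to 1.22 in HFD and 0.636 to 0.902 in NFD livers, the HFD group standing apart from both others. Scd1 over Fasn was 22.1 to 74.2 in NAC_HFD, 21.7 to 57.3 in HFD and 8.93 to 22.5 in NFD livers, with overlap at the edges. The ratios of the other 5 genes overlapped in every comparison. Among all genes, the ratio to Fasn did not overlap in either direction in 2.53% (HFD against NFD), 1.35% (NAC_HFD against HFD) and 2.13% (NAC_HFD against NFD).

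**Figure D4:**
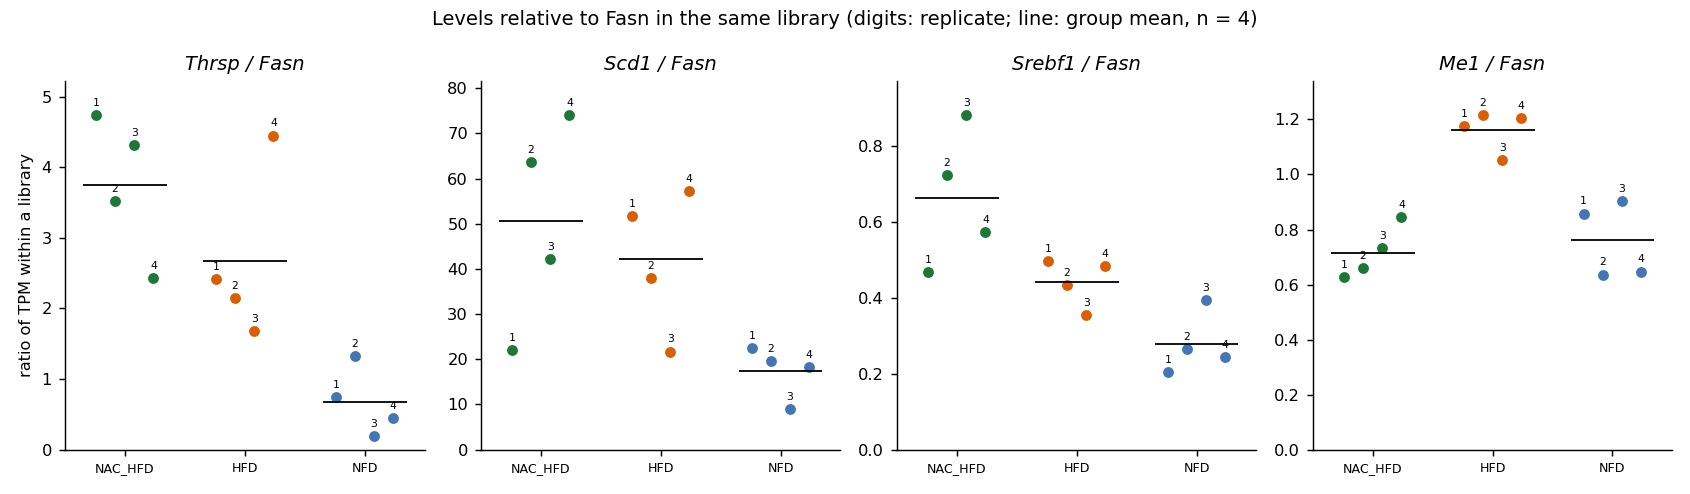
Ratio of the TPM of Thrsp, Scd1, Srebf1 and Me1 to that of Fasn in the same library (vertical axis, from 0), for each library of the NAC_HFD, HFD and NFD groups; digits are replicate numbers and lines are means of 4. Thrsp over Fasn lies at or below 1.33 in NFD and at or above 1.68 in the other groups, and Me1 over Fasn lies at or above 1.05 in HFD and at or below 0.902 elsewhere.

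Across the 12 libraries, groups included, the members most like Fasn were Acaca (Pearson r = 0.85, Spearman rho = 0.84), Acly (0.84 and 0.81) and Me1 (0.76 and 0.80). Without NFD replicates 2 and 1, the libraries farthest from the median of Fasn, r was 0.64 for Acaca, 0.74 for Acly and 0.71 for Me1. Elovl6 had r = 0.70 with all libraries and 0.13 without those. Scd1 (r = 0.42), Srebf1 (0.39), Thrsp (0.25) and Mlxipl (0.22) were less like Fasn, and Acacb had r = 0.44. The 8 other genes with the highest r, leaving out predicted and clone-named genes, were Cars, Aadac, Tkfc, Arl5a, Mif, Acbd6, Tc2n and Shroom1, with r from 0.85 to 0.89. These are descriptions over 12 libraries that share totals and groups.

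The start regions of Fasn, Thrsp and Srebf1 are shown because these genes parted in their ratios while deviating together within groups. The RefSeq table of windows from 250 bases before to 50 after a gene's start (build GRCm38.p6) held 9 of the 10 genes in 13 windows; Scd1 was not among them. Printed are the 120 bases just before the start, 5′ to 3′ on the gene's strand, with CCAAT (the motif of NF-Y, on either strand) and GGGCGG (the GC box of Sp1, on either strand) in capitals; CCAAT and its reverse complement share bases in Fasn. All lie on the minus strand, Fasn at chr11:120824548-120824667, Thrsp at chr7:97417551-97417670 and Srebf1 at chr11:60210472-60210591. For Srebf1 this is the farthest downstream of its 3 listed starts. The Fasn and Srebf1 stretches lie inside the span of their genes.
Fasn: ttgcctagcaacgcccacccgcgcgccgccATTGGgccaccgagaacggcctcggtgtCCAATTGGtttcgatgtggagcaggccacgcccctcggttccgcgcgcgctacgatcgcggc
Thrsp: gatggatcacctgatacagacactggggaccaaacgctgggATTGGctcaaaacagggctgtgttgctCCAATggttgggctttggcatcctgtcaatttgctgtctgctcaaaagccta
Srebf1: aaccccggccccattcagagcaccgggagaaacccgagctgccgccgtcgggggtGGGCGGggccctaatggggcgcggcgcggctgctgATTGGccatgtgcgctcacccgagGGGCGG
CCAAT occurred in 8 of the 13 windows, in 7 of the 9 genes, and in 37.41% of all 32851 windows of the table. GGGCGG occurred in 5 windows of 4 genes and in 35.66% of all windows. CANNTG, the general E-box, occurred in 10 windows of 7 genes and in 72.31% of all. CACGTG, 1 form of it, occurred in 1 window, of Mlxipl, and in 7.15% of all. TCACNCCAC, 1 form of a sterol response motif, occurred in 1 other window of Mlxipl and in 1.242% of all. The motifs named were searched on both strands. Other forms of the sterol response motif were not searched, so windows without TCACNCCAC may still hold one. Each match is a description of letters, and these data hold no measure of binding.

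The gene levels are sums over transcripts, and 34 mRNA transcripts and 15 transcripts of the lncRNA table belonged to the 10 genes. Of the mRNA transcripts 30 passed the floor of 0.1 TPM in at least 4 libraries. Scd1 stood out. Its leading transcript, ENSMUST00000041331, carries the desaturase annotation in the deposited files. Its second transcript, ENSMUST00000235741, has no protein match listed there. The second transcript stood at 148, 953, 392 and 935 TPM in NAC_HFD livers, at 188, 233, 115 and 222 TPM in HFD livers and at 29.1, 17.0, 15.6 and 94.7 TPM in NFD livers. Every liver on the high fat diet was above every NFD liver, and 3 of the 4 NAC_HFD livers were above all HFD livers. Among the 30 tested member mRNA transcripts, groups did not overlap for 1 (HFD against NFD), 0 (NAC_HFD against HFD) and 2 (NAC_HFD against NFD). The share of all mRNA transcripts without overlap was not computed, so these counts cannot be called high or low. Over all genes, 7.78% lay wholly higher in HFD than in NFD. For NAC_HFD against NFD, 3.52% lay wholly higher and 8.52% wholly lower.

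The log2(TPM + 0.1) fold change of this second Scd1 transcript was 4.02 (SE 0.65; adjusted p = 0.0277, limma over all tested mRNA transcripts) for NAC_HFD against NFD, the only member transcript to pass in any comparison. It was 2.64 (SE 0.65; adjusted p = 0.148) for HFD against NFD and 1.38 (SE 0.65; adjusted p = 0.540) for NAC_HFD against HFD. Over all mRNA transcripts 0.205% passed for HFD against NFD, 0.0192% for NAC_HFD against HFD and 0.404% for NAC_HFD against NFD. The call was lost without any 1 of NFD replicates 1, 2 and 3 (adjusted p = 0.0827, 0.0617 and 0.0661, limma) or NAC_HFD replicates 2, 3 and 4 (0.0729, 0.0687 and 0.0816). In the authors' deposited table the same transcript has a fold of 4.78 and an adjusted p of 0.0181 for HFD against NFD, and a fold of 3.63 and an adjusted p of 0.122 for NAC_HFD against HFD.

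Among the mRNA transcripts of Scd1, the leading one took 68.6% ± 14.1 in NAC_HFD, 84.8% ± 2.36 in HFD and 93.9% ± 5.20 in NFD livers (SD, n = 4 each). The exact two-sided permutation p was 0.0286 for NAC_HFD against HFD and for NAC_HFD against NFD, the smallest 4 against 4 libraries can give, and 0.0571 for HFD against NFD; 27 such tests were run over 9 genes, without adjustment. Without any 1 HFD library the exact p for NAC_HFD against HFD was 0.0857, and without NFD replicate 2 that for NAC_HFD against NFD was 0.0571. The third Scd1 transcript, NONMMUT034843.2 of the lncRNA table, stood at 237, 300, 594 and 1043 TPM in NAC_HFD, 721, 871, 260 and 599 TPM in HFD and 582, 695, 97.5 and 210 TPM in NFD livers. With that transcript in the total, the share of the leading transcript for NAC_HFD minus HFD was -5.42 percentage points, with an exact permutation p of 0.286, and for NAC_HFD minus NFD it was -11.7 percentage points, with an exact permutation p of 0.0286. Among the mRNA transcripts alone, the share for NAC_HFD minus HFD was -16.2 percentage points, and -9.38 without NAC_HFD replicate 2. RSEM is named in the processing notes. The sources used here do not give the settings by which reads were divided between these transcripts.

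**Figure D5:**
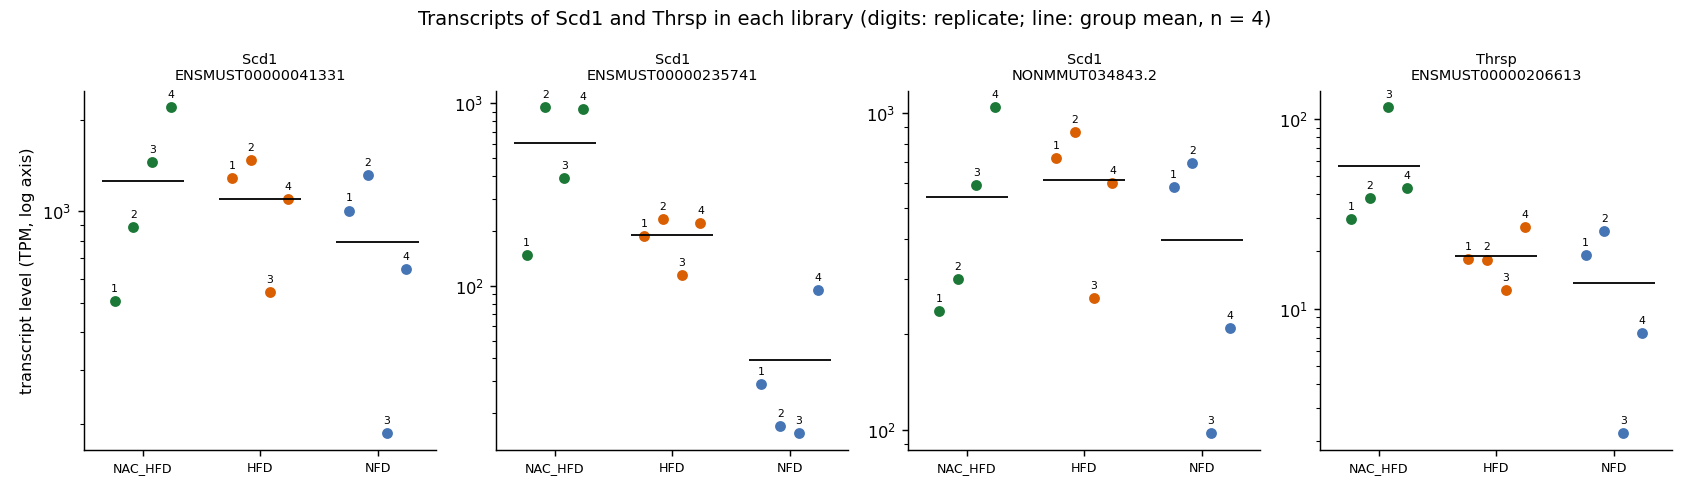
Level in TPM (log axis) of the 3 Scd1 transcripts and of the Thrsp transcript of the lncRNA table in each library of the NAC_HFD, HFD and NFD groups; digits are replicate numbers and lines are means of 4. ENSMUST00000235741 of Scd1 lies at or below 94.7 TPM in NFD and at or above 115 TPM in the other groups, while the 2 other Scd1 transcripts overlap between groups.

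Srebf1 was measured as 3 main transcripts. ENSMUST00000020846, annotated in the deposited files as isoform a, stood at 11.2, 15.3, 26.2 and 16.9 TPM in NAC_HFD, 13.4, 14.0, 10.4 and 11.2 TPM in HFD and 10.9, 14.5, 9.83 and 9.14 TPM in NFD livers. ENSMUST00000144942, annotated as isoform c, the isoform most tied to insulin in liver, stood at 3.79, 6.34, 13.4 and 8.40 TPM in NAC_HFD, 5.13, 7.43, 2.85 and 3.21 TPM in HFD and 2.60, 7.06, 2.10 and 2.30 TPM in NFD livers. Both had their highest value in NAC_HFD replicate 3. For NAC_HFD against NFD the log2 fold change was 0.60 (SE 0.23; adjusted p = 0.292, limma) for isoform a and 1.20 (SE 0.46; adjusted p = 0.286) for isoform c, and ENSMUST00000134660 had 1.47 (SE 0.63; adjusted p = 0.349).

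Acly divided into transcripts annotated as isoforms 1 and 2. A short transcript, ENSMUST00000107385, which carries 2 of the 6 domains listed for the full enzyme, was listed at 0 in 2 NAC_HFD libraries and stood at 1.12 and 1.08 TPM in the others, against 2.54, 0.95, 1.96 and 2.57 TPM in HFD and 3.37, 4.18, 2.18 and 4.89 TPM in NFD livers. NAC_HFD and NFD did not overlap for this transcript (adjusted p = 0.104, limma), and the share of all mRNA transcripts without overlap is not known here. Over all genes, 8.52% lay wholly lower in NAC_HFD than in NFD. The coding transcript of Thrsp, ENSMUST00000043077, stood at 161, 80.1, 134 and 93.5 TPM in NAC_HFD, 84.2, 127, 58.5 and 122 TPM in HFD and 34.8, 112, 4.21 and 15.9 TPM in NFD livers. As for the gene, NFD replicates 1, 3 and 4 lay below every liver on the high fat diet. In NAC_HFD the coding transcript was highest in replicate 1 and the gene in replicate 3. The log2 fold change for NAC_HFD against HFD was 0.27 for the coding transcript and 0.57 for the gene. In the authors' deposited table, transcripts of Fasn (ENSMUST00000205905) and Elovl6 (ENSMUST00000199910 and ENSMUST00000071402) have folds of 0.337, 0.499 and 0.465 for HFD against NFD, with adjusted p from 0.215 to 0.301.

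Transcripts of the lncRNA table carried a part of several gene levels. Their share of the summed level over the 12 libraries had a median of 40.8% for Mlxipl, 34.2% for Acaca, 29.8% for Scd1, 29.0% for Fasn, 25.2% for Thrsp and 15.6% for Acacb. Srebf1, Acly, Me1 and Elovl6 had no such transcript. All 15 were tested on log2(TPM + 0.1) after the mRNA values had been seen, and none passed in any comparison by limma, where the shares of all lncRNA transcripts that passed were 0.0278% (HFD against NFD), 0.0317% (NAC_HFD against HFD) and 0.0992% (NAC_HFD against NFD). At an unadjusted p under 0.05 the counts of the 15 were 0, 2 and 4 in the same order, where the shares of all lncRNA transcripts were 8.02%, 10.1% and 13.3%.

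Around the 10 genes, 7 lists of neighbouring functions were read. These lists were chosen with earlier results of these data known, so their counts carry no test against all genes. In the supply of acetyl-CoA, citrate and NADPH, 2 of 13 tested genes rose in HFD against NFD and none fell, where 2.19% of all genes rose and 0.589% fell. Mpc1, a subunit of the mitochondrial pyruvate carrier, averaged 205 ± 31.3 TPM in HFD livers and 133 ± 8.86 TPM in NFD livers (log2 fold change 0.61, adjusted p = 0.0185, limma). Taldo1, transaldolase of the pentose phosphate pathway, averaged 54.9 ± 4.02 TPM in HFD livers and 39.3 ± 3.28 TPM in NFD livers (0.47, adjusted p = 0.0296). All 13 log2 fold changes were above 0 for HFD against NFD, with a median of 0.14, and all 13 were below 0 for NAC_HFD against HFD, with a median of -0.23, where none passed. The medians of all genes were 0.01 and -0.08, and these comparisons share the HFD libraries. Taldo1 for NAC_HFD against HFD was nearest to the threshold (-0.56, adjusted p = 0.0515, limma). Mpc1 no longer passed when HFD replicate 1 (adjusted p = 0.0736, limma) or 2 (0.0603) was left out, and that of Taldo1 was lost in 6 of the 8 fits without 1 HFD or NFD library, up to an adjusted p of 0.0886 without HFD replicate 2.

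Of 14 genes of the fasting and feeding response, 2 rose in HFD against NFD and 2 in NAC_HFD against NFD, where 1.76% of all genes rose in the second comparison and 3.52% fell. Foxo1, a transcription factor held back by insulin, was at 14.1 ± 2.30 TPM in NAC_HFD, 10.7 ± 1.06 TPM in HFD and 6.63 ± 1.15 TPM in NFD livers. Its log2 fold change was 0.99 for NAC_HFD against NFD (adjusted p = 0.00328, limma), a call kept without any 1 library of those groups, and 0.63 for HFD against NFD (adjusted p = 0.0235), a call lost in 5 of 8 such fits, up to 0.0798 without HFD replicate 4. Pdk4, the kinase that turns down pyruvate dehydrogenase, rose in HFD against NFD (0.59, adjusted p = 0.0465, limma; lost in 7 of 8 such fits). Cebpb rose in NAC_HFD against NFD (0.99, adjusted p = 0.0306, limma; lost in 6 of 8). Angptl4 was nearest after these (1.08, adjusted p = 0.0805, limma, for NAC_HFD against NFD).

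In the other lists calls were few. Of 14 clock genes, 1 passed: Per2 fell in NAC_HFD against NFD, to 16.0 ± 2.91 TPM in NAC_HFD against 23.4 ± 2.36 TPM in NFD livers (log2 fold change -0.53, adjusted p = 0.0243, limma; lost in 4 of 8 fits without 1 library), and Cry2 did not pass (adjusted p = 0.122 for NAC_HFD against HFD). Of 14 partners, paralogs and other lipogenic enzymes, 1 passed: Elovl1, an elongase of very long chains, fell in NAC_HFD against NFD (-0.43, adjusted p = 0.0474, limma), and that call was lost in all 8 such fits. In the same list, chosen after their values were seen, Mid1ip1, the paralog of Thrsp, had log2 fold changes of -0.96 (NAC_HFD against NFD) and -0.88 (HFD against NFD), opposite in sign to Thrsp and not past the test (adjusted p = 0.102 and 0.161, limma). Lpin1, a phosphatidate phosphatase of glycerolipid synthesis also chosen after its values were seen, stood at 250 to 334 TPM in NAC_HFD, 43.1 to 227 TPM in HFD and 11.4 to 130 TPM in NFD livers. All 4 NAC_HFD libraries lay above the other 8, but Lpin1 did not pass for NAC_HFD against NFD (2.07, adjusted p = 0.136, limma) or for NAC_HFD against HFD (1.41, adjusted p = 0.371). None of 12 genes of SREBP processing and LXR input, of 14 genes of sugar entry and ChREBP targets or of 6 AMPK genes passed; their smallest adjusted p by limma were 0.0871 (Usf2), 0.0744 (Pfkfb1) and 0.274 (Prkaa2).

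Of 7 lists of markers of other cells, the adipocyte list had the sum that was higher in every HFD liver than in any other. The summed level of 7 adipocyte markers was 8.86 to 12.5 TPM in NAC_HFD, 17.1 to 47.9 TPM in HFD and 8.72 to 13.7 TPM in NFD livers. The difference lay mostly in Cfd (0.11 to 1.75 TPM in NAC_HFD, 4.74 to 32.7 TPM in HFD and 0.05 to 0.58 TPM in NFD) and in Cidea (0.14 to 0.52, 0.83 to 3.49 and 0 to 0.15 TPM in the same order), while the defining markers Adipoq and Plin1 reached at most 0.15 and 0.27 TPM in any library. The sum of 6 Kupffer cell markers was 35.7 to 67.0 TPM in NAC_HFD, 52.4 to 138 TPM in HFD and 37.5 to 73.4 TPM in NFD livers, and the groups overlapped. HFD replicate 4 was the highest library in both lists. The cholangiocyte sum was 1.62 to 2.93 TPM in NAC_HFD, 1.75 to 2.62 TPM in HFD and 2.61 to 3.03 TPM in NFD livers. The sums of the stellate cell, sinusoidal endothelial, lymphocyte and exocrine pancreas lists overlapped between all groups. The part of these markers in the values of the lipogenesis genes was not tested.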

How the data were processed

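RNA of 12 mouse livers was compared in 3 groups of 4, assigned from the sample labels. Per the submitters' processing notes, fastp, HISAT and RSEM were used with build GRCm38; the sources used here do not give their settings. The deposited tables hold TPM per gene and per mRNA or lncRNA transcript, made by the authors; each gene value of the 10 genes equalled the sum of its transcripts within 0.02 TPM. TPM has a fixed total and keeps no depth, so no counting interval was given. The authors' deposited comparison tables hold fold ratios, log2 fold changes and p-values per the file headers, and list 1110 (HFD/NFD) and 942 (NAC_HFD/HFD) mRNA transcripts; no source used here names their test.

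Genes with at least 1 TPM in at least 4 libraries were fitted on log2(TPM + 1), and transcripts with at least 0.1 TPM in at least 4 on log2(TPM + 0.1), with limma 3.58.1 in R 4.3.3 (trended, robust eBayes), as 3 group means over all 12 libraries; the pseudocount understates the change of low genes. Tests were two-sided, with Benjamini-Hochberg adjustment over all tested features and a threshold of 0.05; the fit was tested on simulated data. Intervals of fold changes are at 95%, unadjusted. Shares were compared by exact permutation.

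The 10 genes, the 7 function lists and the marker lists were chosen with earlier results of these data known. Named are all 10 genes, from each list every gene past the threshold and those of smallest p, the 8 genes most like Fasn by Pearson r (predicted and clone-named genes left out), up to 3 mRNA transcripts per gene, and every row of a member in the authors' tables. The ratios to Fasn, the fit of lncRNA transcripts and the fits of neighbouring genes with 1 library left out were added after the values had been seen. Alternatives were other floors, pseudocounts, scalings, priors, a replicate block and each library left out. Proteins were not compared here.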

Additional observations from a re-analysis of the deposited data

Results flagged for a closer look

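In 3 of the 30 groups of 4 libraries of the 10 genes, 1 library stood far above the rest by Dixon's ratio of its gap to the whole range. The same held in 6 of 27 groups of transcripts. Those were the Srebf1 mRNA transcripts and the member transcripts in the authors' deposited tables, and the other transcripts named here were not screened. Chance gives such a library in about 5% of groups. NFD replicate 2 was set apart for Acly (72.46 TPM) and Srebf1 (27.44 TPM). It was also set apart for the Srebf1 transcripts ENSMUST00000134660 (5.89 TPM) and ENSMUST00000144942 (7.06 TPM). HFD replicate 2 stood apart for ENSMUST00000134660 (7.98 TPM) and for the Elovl6 transcript ENSMUST00000071402 (15.34 TPM). In the NAC_HFD group, replicate 2 stood apart for Elovl6 (21.66 TPM). The other 2 such groups were NAC_HFD for the Fasn transcript ENSMUST00000205905 (2.58 TPM) and for the Thrsp transcript ENSMUST00000206613 (115.17 TPM, replicate 3). Values of 1 library are not independent, since its genes deviated together.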

How the results depend on the processing

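Other floors, pseudocounts and scalings, the fit of only the groups compared and the plain prior left all 10 genes short of the threshold in every comparison, and none of those settings turned a direction. Leaving out 1 library did so for small differences, giving as lowest and highest log2 fold change: for HFD against NFD -0.34 and 0.10 for Acacb, -0.32 and 0.036 for Acly and -0.013 and 0.38 for Me1; for NAC_HFD against HFD -0.11 and 0.22 for Fasn, -0.091 and 0.65 for Scd1 and -0.29 and 0.057 for Mlxipl; for NAC_HFD against NFD -0.34 and 0.11 for Acaca. The count of members past the threshold for NAC_HFD against NFD was 0 to 1 (Thrsp, without NFD replicate 2). The count of member mRNA transcripts past it there was 0 to 1.

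Over all genes, with 1 library left out, the count for HFD against NFD was 89 (without HFD replicate 1) to 377 against 316; it was 168 with no floor and up to 419 (quantile normalization) under the other settings. For NAC_HFD against NFD it was 212 (without NAC_HFD replicate 4) to 619 with 1 left out, against 601; it was 289 with no floor, 195 with only those groups fitted and up to 678 (all libraries rescaled to 1 total). For NAC_HFD against HFD it was 0 to 64 (without NAC_HFD replicate 1) against 0. The cause was not tested. Of the calls in neighbouring genes, those of Mpc1 (HFD against NFD) and Foxo1 (NAC_HFD against NFD) were kept under every other floor, pseudocount, scaling and model. With no floor the other 6 were lost (adjusted p 0.0506 to 0.0854, limma); Pdk4 and Elovl1 were also lost under several other settings, Per2 and Cebpb with only the groups compared (0.0766 and 0.0954), Per2 under median-of-ratios scaling (0.0511), and Taldo1 and Cebpb under the replicate block (0.0665 and 0.0757).

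Of 12 same-number correlations of deviations between groups, 2 were over 0.1 (-0.17 to 0.18). Correlations of unlike numbers were not computed, so these values cannot tell whether replicate numbers pair the samples. With a replicate block, 3 genes passed for NAC_HFD against HFD, none of them a member, and 0 member mRNA transcripts passed for NAC_HFD against NFD, where the second Scd1 transcript had an adjusted p of 0.0735 by limma.

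Of the 10 genes, Thrsp, Scd1 and Elovl6 had the widest intervals with 4 libraries a group, and the depth behind them is unknown.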

Other observations

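The noncoding Thrsp transcript ENSMUST00000206613 stood at 29.7, 38.3, 115 and 43.4 TPM in NAC_HFD livers, at 18.3, 18.1, 12.5 and 26.8 TPM in HFD livers and at 19.1, 25.6, 2.20 and 7.39 TPM in NFD livers. Every NAC_HFD liver was above every HFD and NFD liver, which was not so for the coding transcript of the gene. Among the 15 tested member transcripts of the lncRNA table, groups did not overlap for 0 (HFD against NFD), 1 (NAC_HFD against HFD) and 2 (NAC_HFD against NFD). The share of all lncRNA transcripts without overlap was not computed, so these counts cannot be called high or low. Over all genes, 1.56% lay wholly higher in NAC_HFD than in HFD. For NAC_HFD against NFD, 3.52% of genes lay wholly higher and 8.52% wholly lower. The log2 fold change of this Thrsp transcript was 1.41 (SE 0.66; adjusted p = 0.504, limma) for NAC_HFD against HFD and 2.35 (SE 0.66; adjusted p = 0.163) for NAC_HFD against NFD. In the authors' deposited table it has a fold of 3.17 and an adjusted p of 0.189 for NAC_HFD against HFD. The Acacb transcript ENSMUST00000143276 stood at 0.34 to 0.95 TPM in NAC_HFD, 0.70 to 2.85 TPM in HFD and 1.19 to 2.06 TPM in NFD livers, with a fold of 0.462 and an adjusted p of 0.247 for NAC_HFD against HFD in the authors' deposited table.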
